A study of Mus musculus with 24 samples.

Results

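The p65/RelA-D361E arrays, 4 of the 24 arrays of the series, were set against the 4 p65/RelA-WT arrays, chosen by their transfection label alone. All groups were DA1-3B Bcr-ABL+ cells, a mouse leukaemia line from C3H eOuJ mice that carries the BCR-ABL fusion kinase, and each group received a plasmid: p65/RelA-D361E, p65/RelA-WT, the fragments p65/RelA-p1-361 or p65/RelA-p363-549, both fragments together (p65/RelA-p1-361+p363-549), or the empty VOID plasmid. The design text calls D361E the non-cleavable mutant. The labels give no time after transfection, no promoter, no share of transfected cells and no p65 protein level, and the endogenous Rela gene was present in every group. Whether a group's 4 arrays stand for separate cultures or transfections is not stated, so the p-values below reflect the scatter among these arrays, part of which may be technical.

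p65, encoded by Rela, is the NF-kB subunit that carries the transactivation domain. IkB proteins hold it in the cytoplasm until IKK kinases mark them for destruction, and several IkB genes are themselves NF-kB targets. Caspases can cut p65 after an aspartate, which separates the N-terminal DNA-binding part from the C-terminal transactivation part, and D361E replaces that aspartate with glutamate.

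Levels are log2 intensities minus the array's own 75th percentile, so that 0 is the 75th percentile of that array. A probe was called detected where its spot was marked well above background. Differences are D361E minus WT on the log2 scale, tested with limma on all 24 arrays, which share 1 estimate of the spread, and "called" means a Benjamini-Hochberg adjusted p under 0.05 over all 14991 genes tested. The 8 arrays compared had no saturated spot. Their 75th percentile of intensity averaged 781 ± 102 in D361E arrays and 909 ± 129 in WT arrays (SD, n = 4 each; exact permutation p = 0.2, two-sided, where the smallest possible p is 0.0286), and 52.9% ± 0.85 of spots in D361E arrays and 51.3% ± 1.27 in WT arrays were well above background (exact permutation p = 0.114). The leukocyte gene Ptprc was detected on 4 of 4 arrays of both groups. The fibroblast genes Col1a1, Col3a1 and Dcn, the endothelial gene Cdh5 and the epithelial genes Epcam, Krt8 and Krt18 were detected on 0 of 4 arrays of either group. Col1a2 was detected on 1 of 4 arrays of both groups, and the endothelial receptor gene Kdr on 4 of 4 of both, at a mean level of 2.55 in D361E arrays and 2.21 in WT arrays.

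Each array's gene-centred levels were correlated with the mean of each group, the array itself left out of its own group's mean. Over the 200 genes that varied most over the 24 arrays, each of the 8 D361E and WT arrays lay nearest its own group. The fourth arrays of the 3 fragment groups did not: p1-361 array 4 had a correlation of -0.03 with its own group and 0.358 with VOID, p363-549 array 4 had -0.338 with its own and 0.892 with the combined fragments, and array 4 of the combined fragments had -0.099 with its own and 0.536 with p1-361. Arrays 2 and 3 of p363-549 also lay slightly nearer to p1-361 (0.395 and 0.358) than to their own group (0.385 and 0.281). Over all genes, the set used first, the separation was poor, and 15 of the 24 arrays lay nearest another group, 5 of them D361E or WT arrays. The 3 fragment arrays enter the comparison only through the common spread, through which probes count as detected and are tested, and through the choice of a gene's brightest probe. That choice used the mean of all 24 arrays in every fit, also in those without them. Calls are given with and without them.

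The sample titles are numbered in order, in 4 sets of 6 that each hold every group once, and the labels do not call these sets batches or cultures. Deviations from the group mean, over all genes, correlated between the D361E and the WT array of a set at 0.11, 0.221, 0.706 and 0.687 in sets 1 to 4. The D361E array of set 1 correlated more with the WT array of set 3 (0.346), and the other 3 D361E arrays correlated best with the WT array of their own set. With the set as a block, the fit of 24 arrays called 34 genes, 19 higher and 15 lower, and all 12 genes of the fit without it were among them. Below, its adjusted p is given only for genes that it brought past the threshold. Other uncalled genes named below, such as Cxcr4, Gp1ba, Isg20, Ccl9 and Ccl4, were not called with it.

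The array carries 1 Rela probe, at the 3′ end of the transcript (mm9 chr19:5648070-5648129). Its last 30 bases are shown because they hold the polyadenylation hexamer, in capitals, which places the probe away from the mutated codon, so that it reads neither which form of p65 a transcript encodes nor, without the plasmid's sequence, whether plasmid transcripts were counted.
Rela probe, last 30 bases: gctctgaactAATAAAtgtcttatcacgct
Rela stood at 4.62, 4.79, 4.66 and 4.88 in D361E arrays, at 4.75, 4.68, 4.84 and 4.85 in WT arrays, and at 4.34, 4.24, 4.45 and 4.49 in VOID arrays. D361E and WT arrays overlapped, with a difference of -0.04 (95% interval -0.24 to 0.16; adjusted p = 1). Both groups lay above VOID, D361E by 0.36 (adjusted p = 0.126) and WT by 0.40 (adjusted p = 0.0794), neither past the threshold. The transcripts of the fusion's source genes, Abl1 and Bcr, differed by -0.12 and -0.22, and neither was called.

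Of the 14991 genes, 12 were called between D361E and WT (0.0800%), 6 higher (0.0400%) and 6 lower (0.0400%). The higher genes were Mirt2, Slc4a5, a stefin-like transcript named ENSMUST00000077110, the chemokine Ccl3, Flywch2 and Hif1a. The lower genes were Map3k19, the pseudogene Ifi203-ps, Itih3, Arl6ip1, Grb7 and Tulp2. The D361E and WT arrays of all 12 did not overlap, which was so for 543 genes tested (3.62%). A fit on the 8 arrays alone called 42 of 14751 genes (0.285%), 27 higher (0.183%) and 15 lower (0.102%), and shared 11 of the 12. With normexp background correction, the fit of 24 arrays called 5 genes, 1 higher (Hif1a) and 4 lower. The fit of 8 arrays by limma then called 0 higher, where 209 genes had an unadjusted p under 0.05, and 5 lower (Cpa3, Grb7, Itih3, Tnni1 and Trpc6), so that none of its 27 rises kept a call. Without the 3 fragment arrays, left out with an earlier description of these data in view, the fit called 82 genes, 50 higher and 32 lower, with all 12 among them. Over all genes the median difference was 0.03, and 458 genes had an unadjusted p under 0.05 in the fit of 24 arrays.

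**Figure D1:**
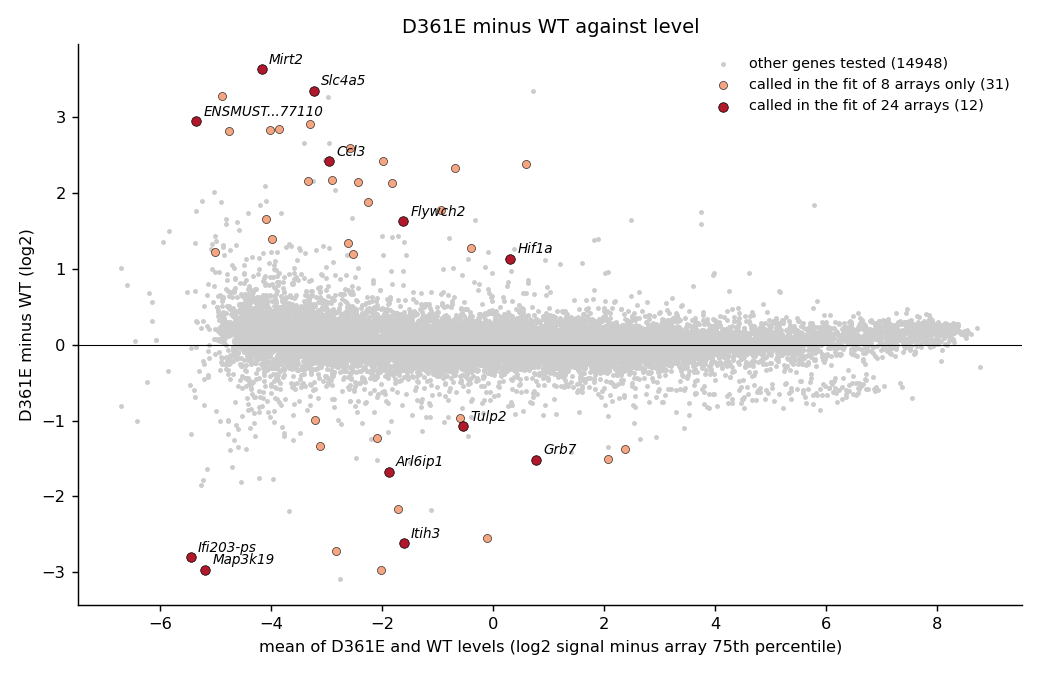
Difference between D361E and WT (log2) against the mean level of both groups for 14991 genes, with the 12 genes called in the fit of 24 arrays named in dark red and the 31 called only in the fit of 8 arrays in orange. Most genes lie near 0, and the called genes spread from dim to bright.

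Hif1a encodes the oxygen-regulated alpha subunit of HIF-1, whose protein is normally removed after hydroxylation by the PHD enzymes, and NF-kB is known to act on its promoter. Hif1a levels were 1.00, 0.79, 0.88 and 0.85 in D361E arrays, against -0.19, -0.48, -0.10 and -0.27 in WT arrays and -0.28, -0.11, -0.20 and -0.22 in VOID arrays. Every D361E array was above every WT and VOID array, while WT and VOID overlapped. The difference was 1.14 ± 0.14 (SE; 2.2-fold, adjusted p = 0.000191), and D361E also exceeded VOID by 1.08 (adjusted p = 0.000155), whereas WT differed from VOID by -0.06 (adjusted p = 0.999). A second Hif1a probe, dimmer and detected on 4 of 4 D361E arrays and 1 of 4 WT arrays, differed by 2.54 (adjusted p = 0.0295 in the fit of every probe). Centring arrays on their median instead moved the difference of the main probe to 0.98 and its adjusted p to 0.111.

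No other gene of the HIF list was called. Of 13 measured HIF subunits and regulators, 1 was called, Hif1a itself. Epas1, the HIF-2 alpha subunit, differed by 0.12 (95% interval -0.31 to 0.55), and Arnt, the beta subunit, by -0.09 (95% interval -0.66 to 0.47). Of 18 measured hypoxia response targets, 0 were called, with an unadjusted p under 0.05 for 1 of them, and 0 were called in the fit of 8 arrays. Their median difference was -0.59, against 0.03 over all genes, and each of the 18 was below 0, from -1.10 to -0.08. The summed linear level of these targets ranged from 139 to 452 over D361E arrays and from 233 to 641 over WT arrays, so the groups overlapped. Within each set the D361E array was lower, at 235, 225, 452 and 139 in the D361E arrays of sets 1 to 4, against 314, 375, 641 and 233 in the WT arrays. In sets 1 to 4, 13, 18, 17 and 17 of the 18 targets were below 0, against 47.4%, 42.9%, 51.6% and 49.6% of all genes. Of the 18 targets, 12 were below 0 in all 4 sets, against 9.99% of all genes. With the set as a block 0 were called. Ddit4, a stress-induced inhibitor of mTORC1, was lowest by p at -0.57 (adjusted p = 1), and Pdk1, the kinase that holds back pyruvate dehydrogenase, differed by -0.76 (adjusted p = 1). Of 20 glycolysis genes 0 were called, with a median of -0.18. Slc16a3, a lactate exporter, differed by 0.58 and Hk3, a hexokinase, by 1.16, both without overlap. Eno1, enolase, differed by -0.50 and also did not overlap. Adjusted p was 0.59 for Slc16a3 and 1 for Hk3 and Eno1.

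The 250 bases before the Hif1a start are shown (RefSeq promoter table, GRCm38.p6, chr12:73907617-73907866, plus strand), with the hypoxia element core ACGTG, read on both strands, in capitals.
Hif1a promoter: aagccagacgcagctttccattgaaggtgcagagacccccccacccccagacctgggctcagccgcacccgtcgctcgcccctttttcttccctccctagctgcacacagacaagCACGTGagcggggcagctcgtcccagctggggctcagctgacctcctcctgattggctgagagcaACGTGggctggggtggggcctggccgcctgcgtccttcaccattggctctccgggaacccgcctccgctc
Counting both strands there were 3 matches to ACGTG, since the first site reads the same both ways. ACGTG occurred in 16.6% of all 32851 promoters of this length in the table, and GCGTG, which the Hif1a window lacks, in 28.2%. Of the 12 called genes, 7 were listed in that table. A called gene counted if any of its listed promoters held a motif, while the shares of all are over single promoters, so the units differ. Hif1a alone of the 7 held ACGTG. The kB consensus, searched on both strands in a form that allows A, C or T at its sixth base, was found in 1 of the 7, Flywch2, against 5.93% of all promoters. A narrower form, with A or T there, was found in 0 of the 7 and in 3.9% of all. The short form GGGNNNNNCC, which overlaps the consensus, was found in 4 of the 7 (Arl6ip1, Flywch2, Hif1a and Slc4a5), against 45.8% of all promoters, and GGGNNNNCC in 2 of the 7 against 38.7%.

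Of the NF-kB response genes, Nfkbia, Nfkbie, Tnfaip3, Ltb and Lta rose over VOID in both groups and were not called between D361E and WT. Nfkbia, the gene of IkB-alpha, was at 5.09, 5.11, 4.67 and 4.79 in D361E arrays, 5.09, 4.84, 5.16 and 5.04 in WT arrays and 3.33, 3.19, 3.73 and 3.08 in VOID arrays. D361E and WT overlapped (difference -0.12, 95% interval -0.72 to 0.48), and both rose over VOID, D361E by 1.58 (adjusted p = 0.00692) and WT by 1.70 (adjusted p = 0.00359). Both promoters of the IkB genes described here, those of Nfkbia and Nfkbie, held the kB consensus in either form, as did those of Tnfaip3 and Ltb. Of these kB forms, the promoters of Lta and Birc3 held only GGGNNNNNCC.

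Tnfaip3, which encodes the ubiquitin-editing inhibitor A20, was at -1.13, -0.82, -1.002 and -0.36 in D361E arrays, -0.27, -0.42, -0.34 and -0.09 in WT arrays and -3.17, -2.70, -2.36 and -2.24 in VOID arrays. The D361E and WT arrays met at 1 D361E array, and the difference was -0.55 (95% interval -1.11 to 0.01; adjusted p = 1), while D361E rose over VOID by 1.79 (adjusted p = 0.000979) and WT by 2.34 (adjusted p = 2.39e-05). Nfkbie, the gene of IkB-epsilon, averaged 1.05 ± 0.15 in D361E arrays, 1.44 ± 0.07 in WT arrays and 0.16 ± 0.11 in VOID arrays (SD, n = 4 each). Its D361E arrays all lay below its WT arrays, but the difference of -0.40 was not called (95% interval -0.82 to 0.03; adjusted p = 1), while D361E rose over VOID by 0.89 (adjusted p = 0.0398) and WT by 1.29 (adjusted p = 0.00148). The lymphotoxin gene Ltb differed between D361E and WT by 0.12 (95% interval -0.37 to 0.61), and Lta by -0.34 (95% interval -1.31 to 0.62). Both lymphotoxins rose over VOID in D361E, by 1.57 and 2.42 (adjusted p = 0.000979 and 0.00976), and in WT, by 1.45 and 2.76 (adjusted p = 0.00213 and 0.00324), with Lta detected on 1 of 4 VOID arrays. The 2 differences from VOID share the VOID arrays. Birc3, which encodes the apoptosis inhibitor cIAP2, differed by -0.30 between D361E and WT and was called over VOID in neither, at 0.08 for D361E and 0.38 for WT.

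Over the 37 measured NF-kB target genes, 1 was called higher, Ccl3, and 0 lower, with a median of -0.03. Of 13 NF-kB subunits and inhibitors and 23 IKK, TRAF and adaptor genes, 0 were called, with medians of -0.04 and -0.01. Nfkbid, a nuclear IkB protein, differed by 0.42 without overlap (adjusted p = 1). Among 15 TNF and lymphotoxin ligands and receptors 0 were called. Tnfsf9, the 4-1BB ligand, was at 0.48, 0.55, 0.32 and 0.17 in D361E arrays and 0.87, 1.15, 1.15 and 1.10 in WT arrays, a difference of -0.69 without overlap that was not called (adjusted p = 0.0872, or 0.0454 with the set as a block). Tnfsf13b, which encodes BAFF, differed by -0.96 without overlap (adjusted p = 0.867).

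**Figure D2:**
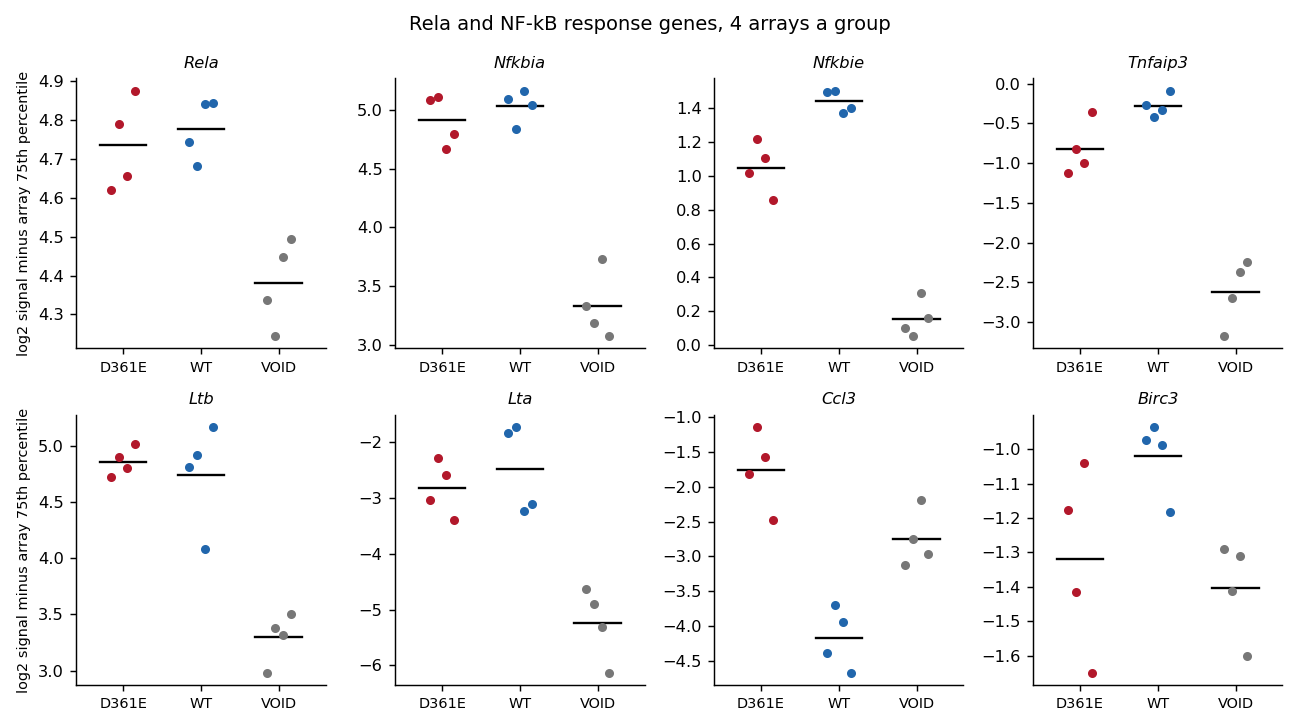
Levels (log2 signal minus the array's 75th percentile) of Rela and 7 NF-kB response genes, with a point for each of the 4 arrays of D361E, WT and VOID and a bar at the mean. D361E and WT both lie above VOID for Nfkbia, Nfkbie, Tnfaip3, Ltb and Lta, whereas for Ccl3 the D361E arrays lie above WT with 3 of the 4 VOID arrays between them.

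Ccl3, which encodes the chemokine MIP-1 alpha and is itself a known NF-kB target, was at -1.81, -1.15, -1.58 and -2.48 in D361E arrays, -4.39, -3.70, -3.94 and -4.67 in WT arrays and -3.13, -2.75, -2.20 and -2.96 in VOID arrays. All D361E arrays were above all WT arrays, by 2.42 ± 0.44 (SE; 5.35-fold, adjusted p = 0.0265), with WT detected on 3 of 4 arrays. VOID lay between them, and neither D361E (1.00, adjusted p = 0.667) nor WT (-1.42, adjusted p = 0.31) was called against it. Ccl3 was called in 15 of 25 alternatives. Of 9 chemokine genes measured, Ccl3 was the 1 called. Ccl6 was at -1.71, -1.18, -1.41 and -0.87 in D361E arrays and -3.17, -2.76, -3.07 and -1.92 in WT arrays, a difference of 1.43 without overlap (adjusted p = 0.224, or 0.012 with the set as a block). Ccl9 (1.42, adjusted p = 1) and Ccl4 (1.27, adjusted p = 1), which lies beside Ccl3 in the same chemokine cluster, overlapped. The chemokine receptor gene Cxcr4 differed by 0.86 without overlap (adjusted p = 0.228).

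Slc4a5 encodes an electrogenic sodium bicarbonate cotransporter. Its levels were -1.81, -1.44, -1.96 and -1.02 in D361E arrays, -4.73, -5.03, -4.89 and -4.98 in WT arrays and -2.81, -2.95, -4.00 and -2.91 in VOID arrays. The 3 groups did not overlap, with D361E highest and WT lowest. The fitted difference of D361E over WT was 3.35 ± 0.39 (SE; adjusted p = 0.000105). WT was detected on 1 of 4 arrays. With WT values taken no lower than the dimmest detected probe of their array, D361E was 9.99-fold higher. WT was below VOID by -1.74 (adjusted p = 0.0417), and D361E was above VOID by 1.61 (adjusted p = 0.0602). With normexp background correction the difference was 1.21 and not called. A second probe, detected on 4 of 4 D361E and 0 of 4 WT arrays, was at least 3.12-fold higher in D361E (adjusted p = 0.00475 in the fit of every probe). Of 13 bicarbonate and acid-base transport genes measured, Slc4a5 was the 1 called.

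Mirt2 is a long noncoding RNA that in mouse macrophages is induced by lipopolysaccharide and restrains TRAF6 signalling. It was at -2.43, -2.26, -1.85 and -2.90 in D361E arrays, -6.35, -5.79, -6.86 and -4.95 in WT arrays and -6.93, -5.46, -3.80 and -6.10 in VOID arrays. It was well above background on 4 of 4 D361E arrays and 0 of 4 WT arrays, so the difference is a bound, at least 6.51-fold higher in D361E. For each WT array the bound takes the higher of its own value and the dimmest detected probe. The fitted difference, which uses WT values below background, was 3.63 (adjusted p = 0.0265). D361E was the only group detected on all 4 arrays, so the gene was tested only because of it. With normexp background correction Mirt2 was not called. Over VOID it rose by 3.21 (adjusted p = 0.0152), and WT differed from VOID by -0.42 (adjusted p = 0.999). Bounds for other probes undetected in a group were computed in the same way, and an adjusted p printed beside a bound is that of the fitted difference. All these bounds hold for the deposited background subtraction only. With normexp background correction the fitted difference of ENSMUST00000077110, described below, was 0.13 and that of Stfa3 was -0.139, both short of their bounds. Map3k19 and Ifi203-ps, described below, were detected on all 4 arrays only in WT. In all, 18 genes (0.120%) were detected on 4 of 4 D361E and 0 of 4 WT arrays, and 3 genes (0.0200%) the other way.

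Flywch2, a FLYWCH zinc finger family member, was at -0.79, -0.83, -0.74 and -0.87 in D361E arrays, -2.20, -2.44, -2.46 and -2.65 in WT arrays and -1.25, -1.27, -1.21 and -1.46 in VOID arrays. The spread within each group was small and the groups did not overlap. The difference was 1.63 ± 0.21 (SE; 3.09-fold, adjusted p = 0.000298). WT fell below VOID by -1.14 (adjusted p = 0.00674), and D361E differed from VOID by 0.49 (adjusted p = 0.638).

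**Figure D3:**
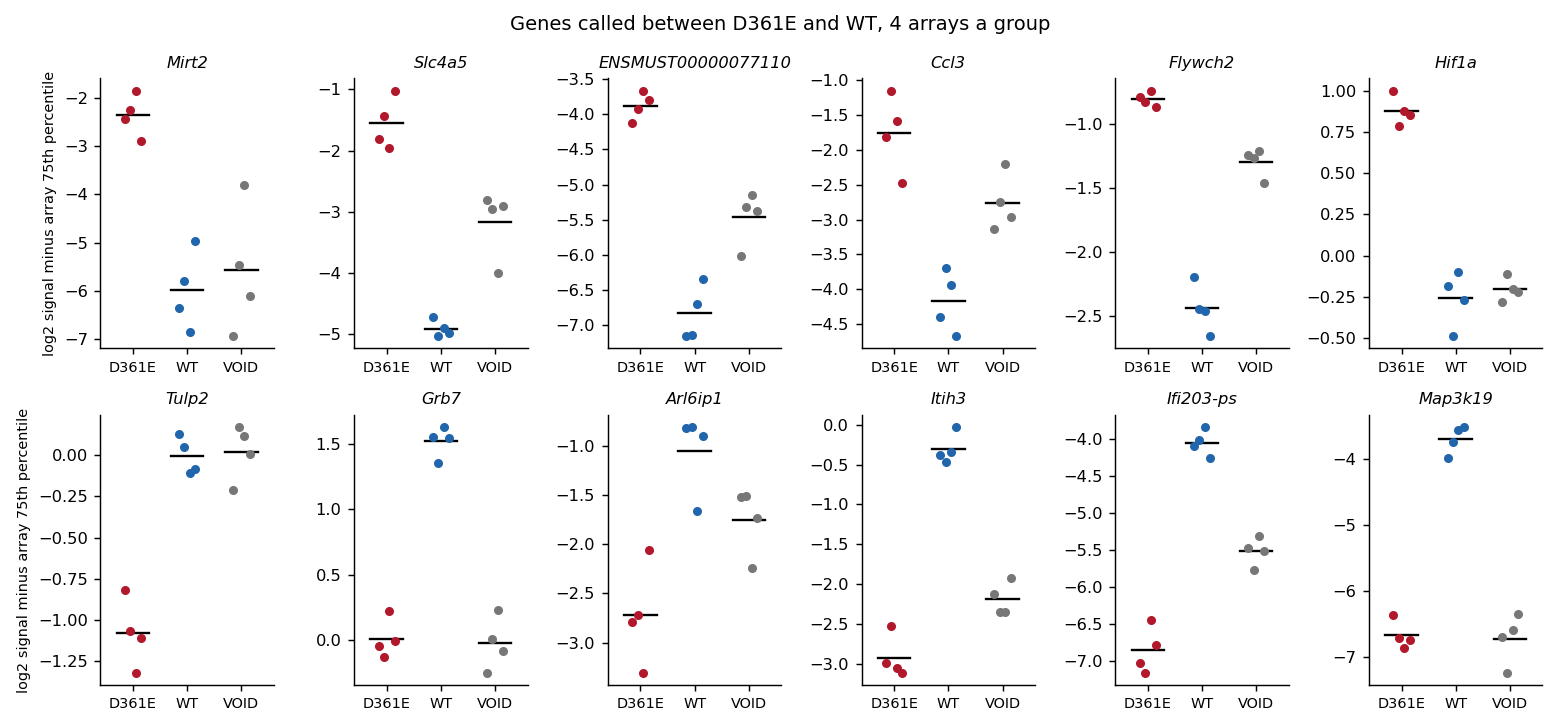
Levels (log2 signal minus the array's 75th percentile) of the 12 called genes, ordered by their difference, with a point for each of the 4 arrays of D361E, WT and VOID and a bar at the mean; each panel has its own vertical scale. D361E and WT do not overlap in any panel, while VOID lies beside WT for Mirt2, Hif1a and Tulp2, beside D361E for Grb7 and Map3k19, and between them in the others.

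Map3k19 encodes a MAP kinase kinase kinase and was the called gene with the smallest p. Its 2 probes are shown because both were lower in D361E at separate places (mm9 chr1:129713958-129714017 and chr1:129714304-129714363, minus strand).
Map3k19 probe 1: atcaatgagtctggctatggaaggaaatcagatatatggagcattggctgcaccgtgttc
Map3k19 probe 2: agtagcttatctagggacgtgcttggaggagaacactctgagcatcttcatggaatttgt
Probe 1 was at -6.36, -6.71, -6.85 and -6.75 in D361E arrays, -3.98, -3.74, -3.56 and -3.53 in WT arrays and -6.69, -7.23, -6.60 and -6.35 in VOID arrays. It was detected on 0 of 4 D361E arrays and 4 of 4 WT arrays, so Map3k19 was at least 2.77-fold lower in D361E (fitted difference -2.97, adjusted p = 5.31e-07). Probe 2, also detected on 0 of 4 D361E arrays, was at least 3.14-fold lower in D361E (adjusted p = 0.000452 in the fit of every probe). Probe 1 was detected on 0 of 4 VOID arrays and was at least 2.33-fold higher in WT than in VOID (adjusted p = 3.92e-07). With normexp background correction its difference between D361E and WT was -1.16 and not called. The other 12 of the 13 MAP kinase kinase kinase and protein kinase D genes measured were not called.

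Grb7 encodes an SH2 adaptor that binds activated receptor tyrosine kinases. Its levels were -0.05, -0.13, 0.22 and -0.01 in D361E arrays, 1.55, 1.36, 1.63 and 1.55 in WT arrays and -0.25, 0.01, 0.23 and -0.09 in VOID arrays. D361E and VOID overlapped and every WT array was higher. D361E fell below WT by -1.51 ± 0.15 (SE; 2.86-fold, adjusted p = 1.32e-05). WT exceeded VOID by 1.55 (adjusted p = 2.96e-06) and D361E differed from VOID by 0.03 (adjusted p = 1). Grb7 was called in each of 26 alternatives. Among 20 BCR-ABL partners and signal adaptors measured it was the 1 called.

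Itih3, a heavy chain of the inter-alpha-trypsin inhibitor family that binds hyaluronan, was at -2.997, -2.53, -3.06 and -3.11 in D361E arrays, -0.37, -0.47, -0.34 and -0.03 in WT arrays and -2.13, -2.35, -2.36 and -1.92 in VOID arrays. D361E fell below WT by -2.62 ± 0.45 (SE; 6.15-fold, adjusted p = 0.0193), and VOID lay between them, nearer to D361E. Leaving out 1 array at a time ended the call for 7 of the 8 arrays (adjusted p up to 0.078). Ifi203-ps, a pseudogene of the interferon-activated p200 family, was at -7.03, -7.15, -6.44 and -6.78 in D361E arrays, where it was not detected, and at -4.10, -4.02, -3.84 and -4.26 in WT arrays. It was at least 2.18-fold lower in D361E (adjusted p = 0.00356). Signal at a pseudogene probe may come from related family members. Over 25 interferon-stimulated genes 0 were called, with a median of -0.34, and Isg20, an exonuclease gene, differed by -1.21 without overlap (adjusted p = 0.952).

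Tulp2, a tubby-like protein gene, was at -0.82, -1.06, -1.32 and -1.11 in D361E arrays, 0.13, 0.05, -0.11 and -0.08 in WT arrays and -0.21, 0.17, 0.11 and 0.01 in VOID arrays. D361E fell below WT by -1.07 ± 0.19 (SE; adjusted p = 0.0265) and below VOID by -1.10 (adjusted p = 0.00448), and WT and VOID overlapped. Tulp2 means were also below that of WT in the p1-361 (-0.84), p363-549 (-0.53) and combined fragment arrays (-0.66). Arl6ip1, which encodes a protein that shapes the endoplasmic reticulum membrane, was at -2.79, -2.72, -3.30 and -2.06 in D361E arrays and -0.82, -0.81, -1.66 and -0.90 in WT arrays. Its difference of -1.67 was called in the fit of 24 arrays (adjusted p = 0.0386) but not in that of 8 arrays (adjusted p = 0.0787), and it was the 1 called gene that the smaller fit did not share. Against VOID, 3 of the 12 genes were called in D361E (Hif1a, Mirt2 and Tulp2) and 4 in WT (Slc4a5, Flywch2, Map3k19 and Grb7). These comparisons share the VOID arrays and reuse the D361E and WT arrays by which the 12 genes were picked. A share above that of all genes can therefore follow from the choice of genes. Over all genes 0.660% were called for D361E against VOID and 0.487% for WT against VOID.

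The 24 arrays lay on 6 slides, and 2 slides held both groups, each with 1 D361E and 1 WT array. All 12 differences had the same sign within both slides, which follows from the lack of overlap between D361E and WT arrays. Hif1a differed by 1.05 on one slide and 1.04 on the other, Slc4a5 by 3.54 and 3.70, Grb7 by -1.68 and -1.57, and Map3k19 by -3.19 and -2.76. With slide as a fixed block, 10 of the 12 remained called, and Mirt2 (adjusted p = 0.0877) and Arl6ip1 (adjusted p = 0.215) did not. With slide as a random block, 10 remained called, and Ccl3 (adjusted p = 0.0502) and ENSMUST00000077110 (adjusted p = 0.0848) did not. For the same reason, all 12 had to have the same sign within each of the 4 sets.

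The fit of 8 arrays called 31 genes that the fit of 24 arrays did not. For genes read by the same probe in both, the 2 fits share the same differences and differ in the spread they are set against. They also differ in the probes that pass the detection filter, with 14991 genes tested on 24 arrays and 14751 on 8. In the fit of 8 arrays a probe had to be detected on all arrays of D361E or of WT. Mirt2, Slc4a5, Ccl3, ENSMUST00000077110, Stfa2l1, Stfa1, Stfa2, Stfa3, Gm10522, Ifitm6 and Clec7a were not in WT. They were therefore tested there only through D361E, where they are high, and Map3k19 and Ifi203-ps only through WT. Of the 42 genes called in the fit of 8 arrays, 40 were also called in the fit of 21 arrays without 3 fragment arrays, which called 82 genes. By the naming rule, the 10 largest rises and the 10 largest falls are described here, and all 20 were called in that fit of 21 arrays too. That fit uses the same D361E and WT arrays, so the shared calls are not separate support.

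Members of the stefin A cluster, cysteine cathepsin inhibitors that lie side by side on chromosome 16, made up 5 of those 10 rises: Stfa2l1, Stfa1, Stfa2, Cstdc4 and Csta2. Stfa2l1 was at -3.55, -3.29, -3.10 and -3.08 in D361E arrays, -7.42, -6.48, -6.48 and -5.79 in WT arrays and -4.49, -4.53, -4.70 and -4.50 in VOID arrays. It was detected on 4 of 4 D361E and 0 of 4 WT arrays, at least 3.50-fold higher in D361E (adjusted p = 0.00212 in the fit of 8 arrays, 0.176 in that of 24). Its lowest fitted difference among the alternatives was 0.52, short of that bound. Cstdc4, detected on all arrays, was at -1.70, -1.28, -0.92 and -1.24 in D361E arrays and -4.29, -3.98, -3.98 and -3.25 in WT arrays, a difference of 2.59 (adjusted p = 0.00226 and 0.39 in the 2 fits). Csta2 differed by 2.17 (adjusted p = 0.00172 and 0.16), Stfa1, detected on 2 of 4 WT arrays, by 2.84 (0.014 and 0.886) and Stfa2, at least 3.28-fold higher, had adjusted p = 0.0266 and 0.467.

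The array carries 10 probes in this cluster, over 330.7 kb (mm9 chr16:36120084-36450752), each naming a different gene. ENSMUST00000077110, called in both fits, is 1 of them, at -4.13, -3.93, -3.66 and -3.80 in D361E arrays and -7.15, -7.13, -6.70 and -6.34 in WT arrays, and at least 2.27-fold higher in D361E (adjusted p = 0.0459). It lost its call in the fit of 24 arrays when any 1 of the 8 arrays was left out (adjusted p from 0.0652 to 0.205), and with normexp background correction its fitted difference was 0.13, against 2.95 without it. Cstdc5 (2.15, adjusted p = 0.0164 in the fit of 8 arrays), Stfa3 (at least 1.97-fold higher, since it was detected on 0 of 4 WT arrays; 0.236) and Csta3 (1.06, overlapping) were named after their values were seen. Csta1, at one end of the cluster, was detected on 0 of 4 arrays of both groups and was not tested. The VOID means lay between those of D361E and WT for each of the 9 tested members, near D361E for Stfa1, Cstdc5 and Stfa3. High levels were not particular to D361E, since the p1-361 means were above those of D361E for every tested member but Csta3. They were -2.87 against -3.26 for Stfa2l1, -0.96 against -1.29 for Cstdc4 and -4.14 against -3.97 for Csta3.

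These genes are near-copies of each other, so their probes can bind each other's transcripts. The pair below shows the closest probes, with bases that match at the same position in capitals.
Stfa2l1 probe: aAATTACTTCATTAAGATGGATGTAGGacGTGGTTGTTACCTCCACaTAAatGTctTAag
ENSMUST00000077110 probe: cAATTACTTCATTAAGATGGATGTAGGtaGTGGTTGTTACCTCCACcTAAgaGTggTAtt
They match at 50 of 60 bases, with a longest run of 26. Over all 45 pairs of the 10 probes, 3 pairs shared a run of 20 bases or more and the median longest run was 6. The values of Stfa2l1 and ENSMUST00000077110 are therefore not independent of each other.

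The last 90 bases before the starts of 4 cluster genes are shown (RefSeq, GRCm38.p6) because they share 1 run of 16 bases, in capitals, at nearly the same distance from the start.
Stfa2l1 (chr16:36156721-36156810, plus strand): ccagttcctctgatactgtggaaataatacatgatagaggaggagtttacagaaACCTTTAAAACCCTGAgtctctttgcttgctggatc
Cstdc4 (chr16:36184122-36184211, plus strand): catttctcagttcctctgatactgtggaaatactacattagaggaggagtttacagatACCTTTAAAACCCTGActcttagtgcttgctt
Stfa1 (chr16:36277058-36277147, plus strand): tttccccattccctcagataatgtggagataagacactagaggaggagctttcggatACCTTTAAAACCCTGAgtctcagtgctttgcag
Stfa2 (chr16:36408364-36408453, minus strand): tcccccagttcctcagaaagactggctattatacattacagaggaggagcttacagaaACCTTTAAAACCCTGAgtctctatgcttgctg
The run was taken as the longest that these 4 share, so its rarity follows from the choice: it occurred in the same window of 6 of the 32851 promoters (0.0183%). Of the 9 cluster genes in the table, 4 held it.

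**Figure D4:**
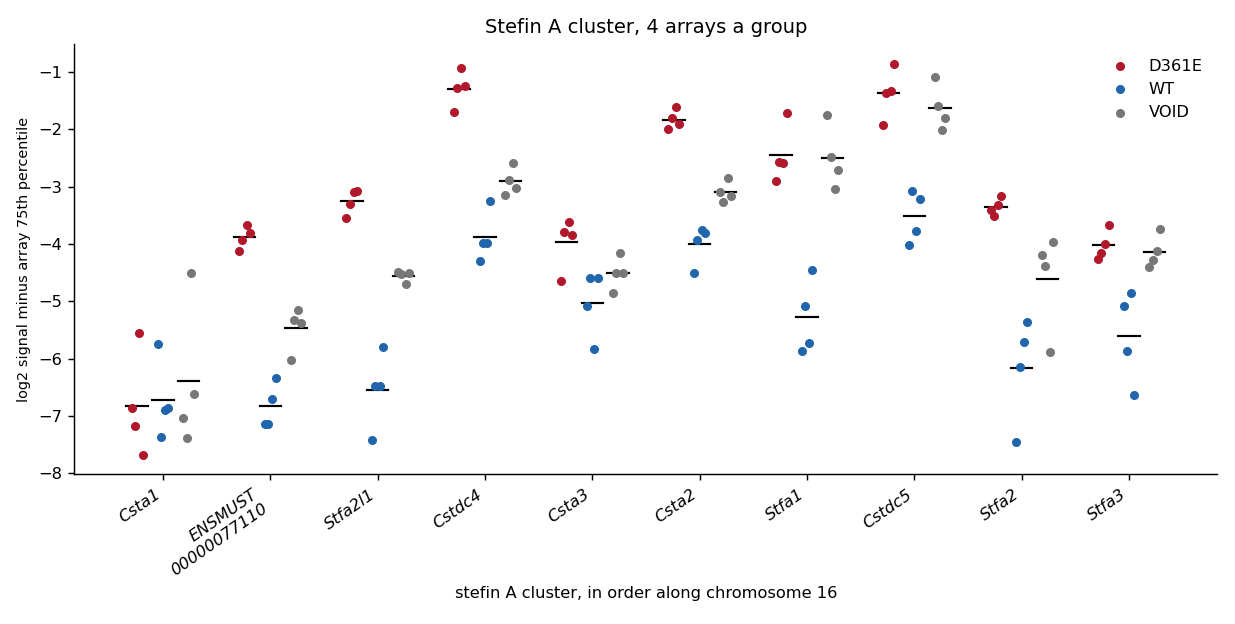
Levels (log2 signal minus the array's 75th percentile) of the 10 stefin A cluster probes in their order along chromosome 16, with a point for each of the 4 arrays of D361E, WT and VOID and a bar at the mean. D361E arrays lie above WT arrays for 8 of the probes, while Csta1 and Csta3 overlap.

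The other 5 large rises of the fit of 8 arrays were Gm10522 with a neighbouring unnamed probe, Ifitm6 and 2 beta-globin genes. Gm10522 differed by 2.90 and the unnamed probe A_55_P2175146, adjacent to it on chromosome 1, by 2.42, so they may read 1 transcript. Ifitm6, of the interferon-induced transmembrane family, was at -2.62, -2.46, -2.75 and -2.59 in D361E arrays, -5.54, -5.92, -6.25 and -4.05 in WT arrays and -3.11, -2.75, -3.16 and -2.22 in VOID arrays. D361E and VOID overlapped and WT was lower than both. D361E exceeded WT by 2.83 (adjusted p = 0.032 in the fit of 8 arrays, 0.0599 in that of 24 and 0.0274 there with the set as a block). WT was detected on 1 of 4 arrays, and with normexp background correction the difference was 0.65 and not called.

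The globin genes were not called in the fit of 24 arrays, although all their differences were positive. Hbb-bt was at 1.99, 2.10, 2.33 and 0.71 in D361E arrays, -0.92, -0.41, -0.23 and -0.82 in WT arrays and 4.04, 4.63, 5.32 and 4.79 in VOID arrays. VOID was highest and WT lowest, with D361E between them and no overlap, and D361E exceeded WT by 2.38 (adjusted p = 0.0315 in the fit of 8 arrays, 0.616 in that of 24). Hbb-b2 differed by 2.33 (0.0375 and 0.722). Of 7 globin genes measured, 0 were called in the fit of 24 arrays, 2 in that of 8, and 2 others, Hba-a1 and Hba-a2, in that of 24 with the set as a block. The 7 differences ranged from 1.68 to 2.38 with a median of 1.84, and 5 did not overlap, against 1.99% of all genes that were higher without overlap. The summed linear level of the globins ranged from 70.6 to 193 over D361E arrays and from 23.5 to 71.0 over WT arrays. Some globin genes of the same family, alpha or beta, are near-copies of each other, so 1 transcript may be read by several probes of that family. The globin probe sequences were not compared. The adult alpha-globin Hba-a2 was at 6.96, 6.89, 7.18 and 5.78 in D361E arrays and 4.21, 4.83, 5.77 and 4.63 in WT arrays (1.84, adjusted p = 0.0635, or 0.0114 with the set as a block), and the embryonic Hbb-y differed by 1.90 (adjusted p = 0.176). Among 17 erythroid and megakaryocyte markers 0 were called in the fit of 24 arrays, with a median of -0.03 and a range of -1.41 to 0.96. Gp1ba, a platelet receptor subunit, differed by -1.41 without overlap (adjusted p = 0.271). In bulk samples, fewer cells of a type and less RNA per cell cannot be told apart.

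Monocyte and macrophage markers gave 0 calls of 17 in the fit of 24 arrays and 2 in that of 8, Acod1 and Clec7a. Their differences ranged from -0.52 to 1.88, with a median of 0.32. Their summed linear level ranged from 28.02 to 50.5 over D361E arrays and from 30.9 to 42.7 over WT arrays. The part of this list and of the globins in the other differences was not tested. Acod1, which makes itaconate in activated macrophages, was at -1.69, -1.13, -0.93 and -1.48 in D361E arrays, -3.19, -2.94, -3.62 and -3.004 in WT arrays and -6.28, -6.84, -6.43 and -5.64 in VOID arrays. Both p65 groups lay above VOID, with D361E above WT by 1.88 (adjusted p = 0.00757 in the fit of 8 arrays, 0.722 in that of 24). Clec7a, the beta-glucan receptor Dectin-1, detected on 2 of 4 WT arrays, differed by 1.39 (0.0164 and 1), and Ly6c1, which differed by 1.24 without overlap, was not called in either (0.258 and 0.176), but was with the set as a block (0.012). Its sign turned with normexp background correction (-0.13, not called). Of 5 neutrophil and granule markers measured 0 were called, with differences from -0.22 to 0.92. Cebpe, a factor of granulocyte maturation, differed by 0.92 without overlap (adjusted p = 0.587). Other rises of the fit of 8 arrays, named after their values were seen, were the acute phase gene Hp (2.16), the histone citrullinating enzyme gene Padi4 (1.78), the ubiquitin ligase subunit gene Asb2 (1.66), the receptor gene Gpr132 (1.34) and Igf2r (1.19), the mannose-6-phosphate receptor gene.

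Among the 10 largest falls of the fit of 8 arrays were 2 mast cell proteases. Cpa3, carboxypeptidase A3, was at -1.57, -1.07, -1.21 and -1.71 in D361E arrays, 0.60, 1.60, 1.35 and 1.05 in WT arrays and 0.32, 1.73, 1.95 and 1.55 in VOID arrays. WT and VOID overlapped and D361E was below both, by -2.54 from WT (adjusted p = 0.00212 in the fit of 8 arrays, 1 in that of 24). Cma1, mast cell chymase, was at 1.05, 1.41, 1.62 and 1.17 in D361E arrays and 2.37, 3.04, 3.23 and 2.64 in WT arrays (-1.51, adjusted p = 0.0298 and 1). The unnamed probe A_55_P2066017, on the same chromosome, differed by -1.37 (0.0298 and 1). Of 9 mast cell and basophil markers measured, 0 were called in the fit of 24 arrays and 2 in that of 8, with a median of -0.58 and a range of -2.54 to 0.40. Mcpt4 differed by -1.24 without overlap (0.136 and 1), Mcpt8 by -1.79 with overlap (adjusted p = 0.714 in the fit of 24 arrays), and Hdc, the histamine-forming enzyme gene, by -0.09. The summed linear level of these markers ranged from 39.5 to 63.7 over D361E arrays and from 50.6 to 67.0 over WT arrays.

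The other falls had no shared list. Trpc6, a cation channel gene, was at -3.74, -3.60, -3.77 and -2.94 in D361E arrays, -0.27, -0.54, -1.21 and -0.14 in WT arrays and -1.07, -1.52, -2.22 and -0.83 in VOID arrays. D361E was below both other groups, by -2.97 from WT (adjusted p = 0.00212 in the fit of 8 arrays, 0.216 in that of 24). The noncoding 9330199F22Rik differed by -2.73 (0.00172 and 0.0872), the slow troponin gene Tnni1 by -2.17 (0.00212 and 1), the postsynaptic scaffold gene Shank3 by -1.33, the nicotinic receptor gene Chrna2 by -1.23 and Gm9564 by -0.97. F13a1, coagulation factor XIII A, was at -3.69, -3.72, -3.77 and -3.69 in D361E arrays, -2.82, -2.60, -3.05 and -2.43 in WT arrays and 3.27, 3.44, 3.36 and 3.87 in VOID arrays. Both p65 groups lay far below VOID, D361E by -7.20 (adjusted p = 0.000615) and WT by -6.21 (adjusted p = 0.00284), and D361E was below WT by -0.99 (adjusted p = 0.0375 in the fit of 8 arrays, 1 in that of 24).

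Genes downstream of BCR-ABL and STAT5 gave 0 calls of 19, with a median of -0.14. Phlda1, an ERK-responsive gene, differed by -1.24 without overlap (adjusted p = 0.211, or 0.0391 with the set as a block), and Socs3, which encodes a feedback inhibitor of cytokine receptors, by -0.63 without overlap (adjusted p = 1). The DNA replication list (26 measured) and the G2 and mitosis list (24 measured) gave 0 calls, with medians of 0.05 and -0.15. The BCL2 family (12), caspases and IAPs (17) and p53 targets (17) gave 0 calls as well, with medians of 0.07, -0.06 and 0.16. Over all lists, 550 distinct genes were tested and 5 were called in the fit of 24 arrays, beside 0.0800% of all genes. The lists were chosen with earlier results of these data known, so this count does not measure enrichment.

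**Figure D5:**
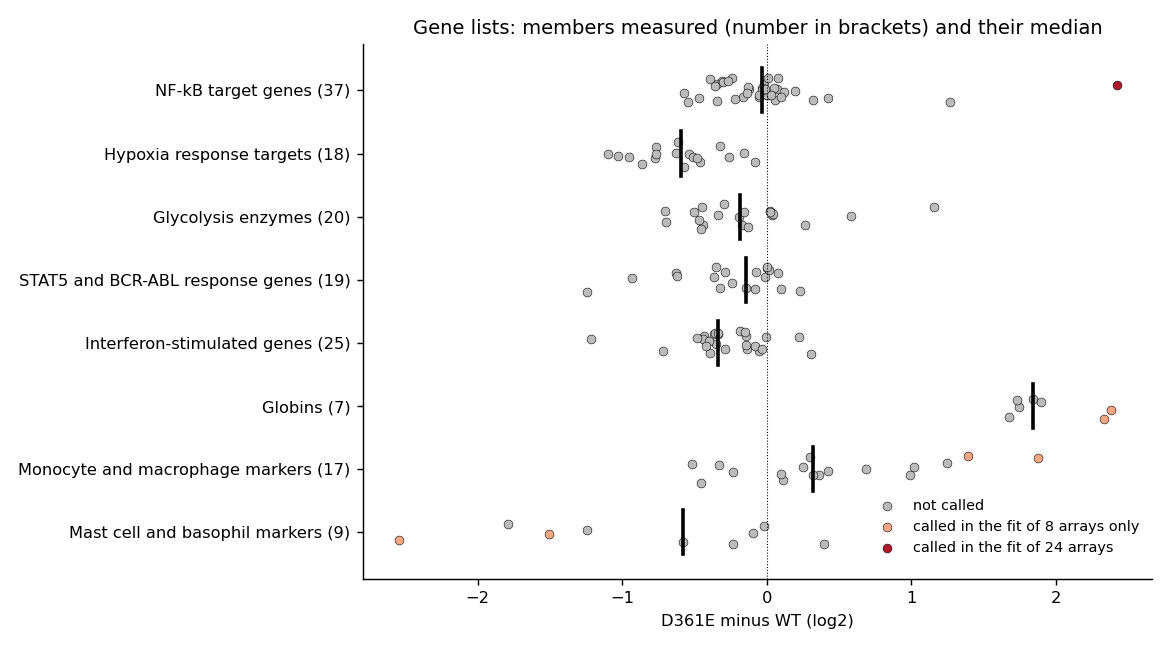
Differences between D361E and WT (log2) for the measured members of 8 gene lists, with a point for each gene and a thick line at each list's median. NF-kB targets centre near 0 with Ccl3 apart, the 7 globins lie between 1.68 and 2.38, and the 18 hypoxia response targets all lie below 0.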

How the data were processed

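RNA from 24 samples was hybridised in 1 colour (Cy3) to Agilent mouse arrays. Of these, 8 arrays are compared here, and VOID and fragment arrays enter in the common spread, in the probe filter and choice or as levels. The authors' scans were quantified in Agilent Feature Extraction (version 10.7.3.1, per the file headers). What they deposited is processed spot intensity on a linear scale after background subtraction, with probe positions on mm9. Their series table carried identical intensity values (largest difference 0). No values deposited by the authors were on a log2 scale.

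The log2 processed intensity minus each array's 75th percentile over non-control spots was computed. Outlier spots (185 to 312 an array) were left out and repeated spots averaged. Of 39429 probes, 27592 were named through RefSeq accessions and the rest by the array files. Of a gene's probes well above background on all 4 arrays of a group, the brightest over all 24 arrays was used. Tests were limma 3.58.1 in R 4.3.3 (lmFit, eBayes; 18 residual degrees of freedom, 6 in the fit of 8 arrays), Benjamini-Hochberg adjusted. The number of arrays limits the precision. On simulated arrays for D361E minus WT (14991 genes), the fit of 24 arrays called 36 of 67 genes changed by 1 log2 unit, 56 of 67 changed by 2 and 65 of 66 changed by 3, with 9 false calls among 14791 unchanged genes. The fit of 8 arrays called 26, 54 and 64 of them, with 14 false calls. Noise in the simulated arrays was independent, with 1 spread for each gene pooled over all groups. It had no background floor and no shift shared by a set, so these rates may not hold for the data. In the data the fit of 8 arrays called more genes than that of 24 (42 against 12).

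The text names genes called in the fit of 24 arrays; of those called only in the fit of 8, the 10 largest rises and falls that do not overlap and are detected on all 4 brighter arrays; Rela, Abl1, Bcr, 9 NF-kB and HIF genes; and list members with the smallest p. Members, lists and tests were chosen with earlier results of these data known. Alternatives covered background correction, normalization, filters, probes, slides, array weights, left-out arrays and the arrays in the fit.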

Additional observations from a re-analysis of the deposited data

Results flagged for a closer look

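In 158 groups of 4 arrays (the D361E and the WT arrays of each gene named), 2 held 1 array far from the other 3 by Dixon's criterion, where chance gives about 1 in 20. Arl6ip1 was at -1.66 on WT array 3, next to -0.90 on the nearest other WT array, and this array was still above the 4 D361E arrays. Mcpt4 was at -2.20 on WT array 1, next to -1.44 on the nearest other WT array.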

How the results depend on the processing

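The count of 12 called genes became 42 with 8 arrays only, 82 without the 3 fragment arrays, 34 with sets of consecutive sample numbers as a block, 2962 with array weights, 5 (1 higher, 4 lower) with normexp background correction and 4 with probes detected on all 24 arrays; without 1 array it ranged from 6 to 12 (6 without WT array 1 or 2), and under the other alternatives from 10 to 17. The 42 calls of the fit of 8 arrays became 5 (0 higher, 5 lower) with normexp, and 24 to 46 without 1 array (24 to 27 without D361E array 2 or 3 or WT array 1 or 2). The 5 called list genes became 12 with 8 arrays and 2 with normexp. The share of called genes whose promoter holds the kB consensus was 14.29% and became 0 with the narrower form, by its construction. The cause of the other changes was not tested. Grb7 kept its call in all 26 alternatives; Slc4a5, Flywch2, Map3k19 and Ifi203-ps lost it only with normexp, Hif1a only with the array median, Itih3 in 7, Tulp2 in 8, Mirt2 in 9, Ccl3 in 10, Arl6ip1 in 13 and ENSMUST00000077110 in 14. Array-median centring moved the median difference of all genes to -0.10. None of the 12 called genes changed sign. Signs of uncalled differences reversed with normexp (Rela 0.121, Nfkbia 0.011, Ly6c1 -0.135, Stfa3 -0.139, Csta3 -0.14, Hk3 -0.0050), array weights (Rela 0.048, Nfkbia 0.127, Hdc 0.117), the array median (Ltb -0.0096, Epas1 -0.0064), slide as a block (Ltb -0.058, F13a1 0.039) and array brightness as a covariate (Epas1 -0.060). Without 1 array, Ltb ranged from -0.104 to 0.257 (below 0 without WT array 3), Arnt from -0.248 to 0.067 (above 0 without D361E array 4 or WT array 3) and Hdc from -0.164 to 0.0053 (above 0 without WT array 3). The labels give 1 running sample number and no replicate number shared between groups; the sets of consecutive numbers were therefore a block in an alternative only, and D361E and WT arrays of a set deviated together to differing degrees (correlations of 0.11 to 0.706). Dim probes limit folds to bounds where a group was not detected, and these bounds hold for the deposited background subtraction only.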
